A study of Homo sapiens with 12 samples.

Results

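Collagen chain genes, which encode the alpha chains of the collagens, were examined in bulk RNA-seq data from the MCF10 progression series, 4 epithelial lines of the human breast. Members were taken by symbol, as each row of the deposited table named COL, a number, A and a number, and 44 of the 59427 rows matched. Of these, 17 reached 1 TPM (a transcript level scaled for gene length and for the total of the library) in at least 1 line. MCF10A is the non-tumorigenic line from which the others descend, and MCF10AT1 is its derivative transformed with HRAS G12V. MCF10DCIS stands for ductal carcinoma in situ and MCF10CA1a for metastatic disease, and both of these are HRAS-derived too. The labels name 3 libraries per line, and a single DMEM:F12 medium was used throughout, which held hydrocortisone, cholera toxin, insulin, EGF, glutamine, antibiotics and horse serum. Each stage is represented by 1 line, so a stage and the history of its line cannot be told apart.

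Collagens are secreted or membrane-bound proteins in which alpha chains wind into a helix of repeated glycine triplets. Fibrillar collagens build the fibres of connective tissue, type IV collagens form the sheet of the basement membrane, and fibril-associated collagens with interrupted helices (FACITs) sit on the surface of fibres. In the breast, the epithelium lies on a basement membrane to which it is fastened by hemidesmosomes and anchoring fibrils, whereas most interstitial collagen is made by stromal fibroblasts. Some collagens are homotrimers, while others need chains from different genes, so the levels of partner chains were set side by side.

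The deposited values were the authors' mean TPM of each line, so no value has an error and no difference has a replicate check. Higher or lower below means a difference of log2(TPM + 1) of at least 1, a rule of size that is not a test, and such a difference understates the change of low genes. The 13108 genes that reached 1 TPM in at least 1 line entered the comparisons. Structural and small non-coding RNAs held 57.7% of the TPM in MCF10A and 60.0%, 66.0% and 59.9% in MCF10AT1, MCF10DCIS and MCF10CA1a, which lowers the TPM of other genes, most in MCF10DCIS. Over all 13108 genes, the median difference of MCF10AT1, MCF10DCIS and MCF10CA1a from MCF10A was -0.066, -0.38 and -0.074. TPM was also rescaled to 1000000 after leaving out those RNAs along with mitochondrial transcripts and ribosomal protein genes (rescaled TPM), and the median then was 0.041, -0.094 and 0.047. Of 8 epithelial markers, 8 reached 1 TPM in MCF10A and 7 in each derived line, KRT19 being the exception at 0.419 to 0.688 TPM. The 8 summed to 3234 TPM in MCF10A and to 1823, 2812 and 3015 TPM in the derived lines in the order above, lowest in MCF10AT1. There the epithelial adhesion genes CDH1 and EPCAM were 21.3 and 37.6 TPM, against 149 and 86.1 TPM in MCF10A. CDH1 was also under its MCF10A level in MCF10DCIS and MCF10CA1a, at 42.3 and 51.9 TPM. The markers did not share a lowest line: CDH1, EPCAM, KRT17, KRT18 and KRT19 were lowest in MCF10AT1, KRT8 in MCF10DCIS, and KRT5 and KRT14 in MCF10CA1a.

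Upstream sequences are shown for 4 genes whose levels are described below: COL4A5, which lies head to head with COL4A6, COL12A1 and COL27A1, which were higher in MCF10DCIS and MCF10CA1a than in MCF10A, and COL7A1, which was highest in MCF10AT1. Each is the 250 bases before a RefSeq transcription start on GRCh38.p14, printed 5′ to 3′ on the gene's strand, and none of these bases lies in an exon of GENCODE release 29. Capitals mark matches, on either strand, to 4 motifs: the AP-1 site TGANTCA, the GC box GGGCGG, the CCAAT box and the TATA box TATAAA. The COL4A5 bases are chrX:108439588-108439837 on the plus strand, those of COL12A1 chr6:75206054-75206303 on the minus strand, those of COL27A1 chr9:114155287-114155536 on the plus strand and those of COL7A1 chr3:48595330-48595579 on the minus strand.
COL4A5: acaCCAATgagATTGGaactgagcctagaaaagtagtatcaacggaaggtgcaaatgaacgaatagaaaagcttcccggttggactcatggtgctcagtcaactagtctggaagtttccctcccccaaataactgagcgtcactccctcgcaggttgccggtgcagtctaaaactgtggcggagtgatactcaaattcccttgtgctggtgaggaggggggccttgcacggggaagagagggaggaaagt
COL12A1: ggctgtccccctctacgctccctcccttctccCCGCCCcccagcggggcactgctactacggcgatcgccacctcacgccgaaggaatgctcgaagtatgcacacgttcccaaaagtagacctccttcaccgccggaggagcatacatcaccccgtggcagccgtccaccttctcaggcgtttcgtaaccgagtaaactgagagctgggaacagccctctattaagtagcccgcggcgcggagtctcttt
COL27A1: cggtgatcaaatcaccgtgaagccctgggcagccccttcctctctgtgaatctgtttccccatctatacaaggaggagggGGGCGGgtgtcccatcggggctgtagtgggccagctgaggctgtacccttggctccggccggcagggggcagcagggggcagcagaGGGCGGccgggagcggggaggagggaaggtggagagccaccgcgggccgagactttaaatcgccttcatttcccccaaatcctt
COL7A1: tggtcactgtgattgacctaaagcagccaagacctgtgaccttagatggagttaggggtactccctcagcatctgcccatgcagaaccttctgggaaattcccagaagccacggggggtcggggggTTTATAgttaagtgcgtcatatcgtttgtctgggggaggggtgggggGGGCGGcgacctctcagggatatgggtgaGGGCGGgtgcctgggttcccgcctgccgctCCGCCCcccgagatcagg

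The COL4A5 bases held 2 CCAAT matches and no other match. COL12A1 held 1 GC box, COL27A1 held 2 and COL7A1 held 3, and COL7A1 also held 1 TATA match. The RefSeq promoter table contained 32 of the 44 members, 12 of them among the 17 that reached 1 TPM. Counting 1 window per gene, the GC box was present in 7 of these 12, against 42.3% of 27305 genes, and the CCAAT box in 5 of 12, against 33.0%. The TATA match was present in COL13A1, COL17A1 and COL7A1, against 11.1% of genes. The AP-1 letters were in 0 of the 32 member windows and in 6.60% of the 27305 genes, which says nothing of sites outside these 250 bases.

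Summed over the 44 genes, collagen chain transcripts came to 97.8 TPM in MCF10A and 182, 173 and 243 in MCF10AT1, MCF10DCIS and MCF10CA1a. The sum was lowest in MCF10A and highest in MCF10CA1a, also in rescaled TPM, where it was 286, 582, 652 and 785 in the same order. The order of MCF10AT1 and MCF10DCIS differed between those scales. In bulk RNA, fewer cells that express a gene and less of its RNA per cell cannot be told apart. Most of the sum came from few genes: the 5 most abundant held 86.8% of it in MCF10A and 72.2%, 74.6% and 80.3% in MCF10AT1, MCF10DCIS and MCF10CA1a. COL17A1 was first in each line, with 25.7% to 37.5% of the sum.

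**Figure D1:**
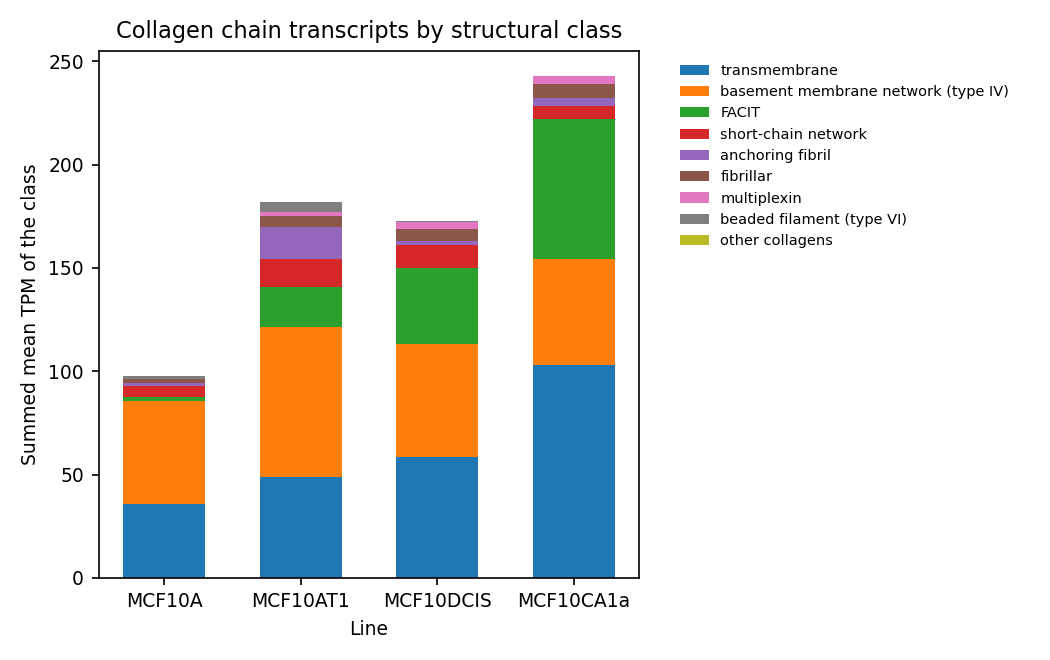
Summed mean TPM of collagen chain genes in each line (y axis, linear from 0; x axis, the 4 lines), stacked by structural class. Type IV chains hold 49.7 TPM in MCF10A and 51.4 TPM in MCF10CA1a, while the FACIT segment goes from 2.20 to 67.5 TPM between these lines; bars have no error because 1 mean per line was deposited.

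By structural class, the type IV chains of the basement membrane held 50.9% of collagen TPM in MCF10A and 39.9%, 31.7% and 21.2% in MCF10AT1, MCF10DCIS and MCF10CA1a. Their summed level did not fall with that share: it was 49.7 TPM in MCF10A and 72.7, 54.8 and 51.4 TPM in the derived lines. The FACITs made up 2.25% in MCF10A and 10.7%, 21.1% and 27.8% in MCF10AT1, MCF10DCIS and MCF10CA1a. Their sum was 2.20, 19.5, 36.4 and 67.5 TPM, beside 35.6, 48.9, 58.6 and 103 TPM for the transmembrane collagens. The class with the largest gain over MCF10A was type IV in MCF10AT1, the FACITs in MCF10DCIS and the transmembrane collagens in MCF10CA1a. Transmembrane collagens held 36.4%, 26.8%, 33.9% and 42.4%. The 11 fibrillar chains together stayed between 1.80 TPM in MCF10A and 6.69 TPM in MCF10CA1a.

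Against MCF10A, 8 of the 17 collagen genes compared were higher in MCF10AT1, where 3.39% of all 13108 genes were higher, and 0 were lower, where 5.87% of all genes were. In MCF10DCIS 7 were higher (3.56% of all genes) and 1 was lower (14.8%), and with rescaled values 10 and 1 (7.84% and 10.3% of all genes). MCF10CA1a had 9 higher (5.97%) and 1 lower (7.14%), and with rescaled values 10 and 2 (9.46% and 7.79% of all genes). The median difference of the 17 was 0.72, 0.66 and 1.02 in MCF10AT1, MCF10DCIS and MCF10CA1a, beside the all-gene medians of -0.066, -0.38 and -0.074. These comparisons share the MCF10A values, and 7 of the 17 genes were under 1 TPM in MCF10A and were compared only because a derived line passed that level. Counts and medians over the 17 are therefore a description and do not stand for the 44.

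**Figure D2:**
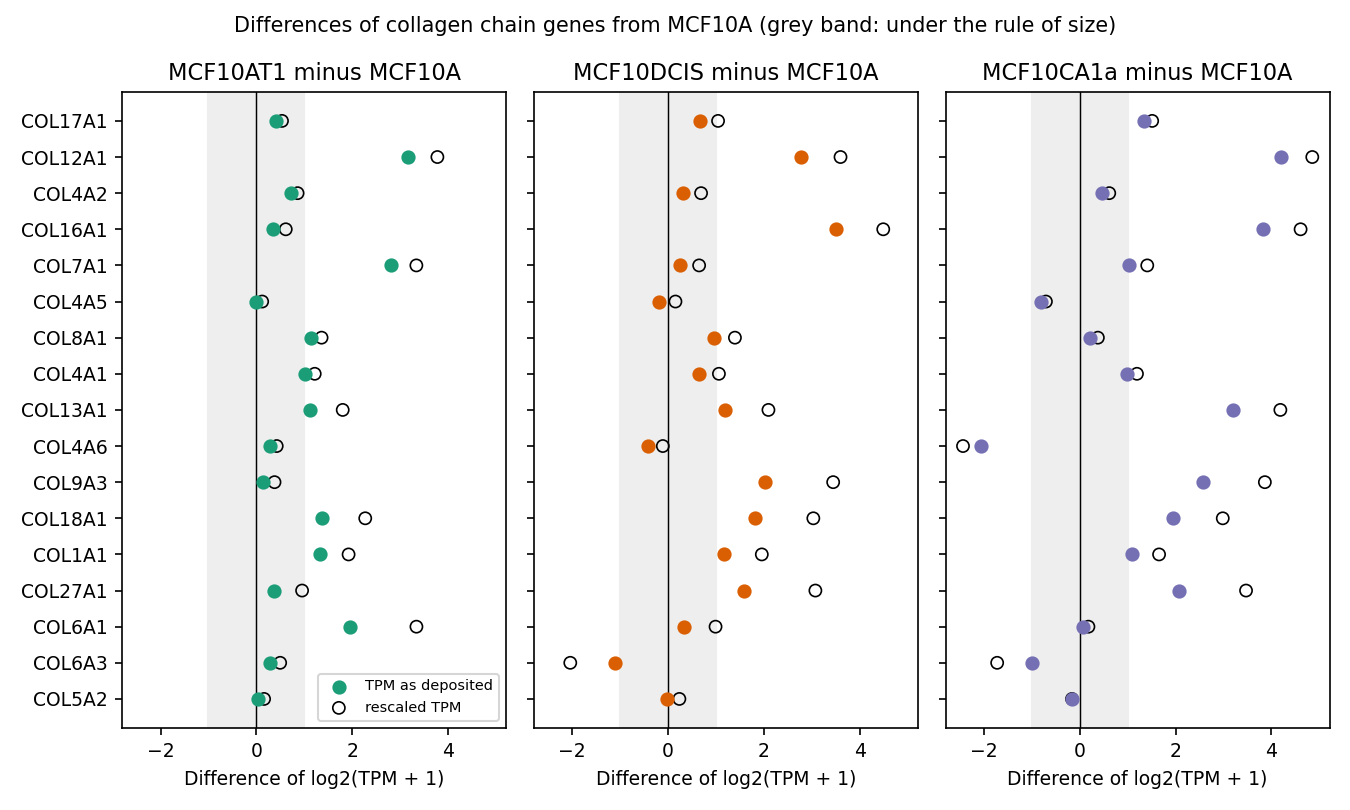
Difference of log2(TPM + 1) from MCF10A (x axis) for the 17 collagen genes that reached 1 TPM (y axis), in MCF10AT1, MCF10DCIS and MCF10CA1a; filled points use TPM as deposited, open circles rescaled TPM, and the grey band spans differences under 1. COL12A1 lies beyond the band in each panel, COL7A1 is far from it in MCF10AT1 at 2.81, and COL4A6 is beyond it on the lower side in MCF10CA1a at -2.07.

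Between derived lines, 3 collagen genes were higher in MCF10DCIS than in MCF10AT1 (3.23% of all genes) and 3 lower (7.51%). COL16A1, COL9A3 and COL27A1 were the higher ones, and COL7A1, COL6A1 and COL6A3 the lower. COL9A3 and COL27A1 were under 1 TPM in MCF10AT1, COL6A1 and COL6A3 in MCF10DCIS and MCF10CA1a, and COL4A6 in MCF10CA1a. Their levels in other lines brought these genes into the comparisons, so the counts here are a description too. MCF10CA1a had 2 genes higher than MCF10DCIS (6.03%), COL13A1 and COL12A1, and 1 lower (1.35%), COL4A6. Against MCF10AT1 it had 5 higher (6.0% of all genes), adding COL16A1, COL9A3 and COL27A1 to those, and 4 lower (3.97%), namely COL4A6, COL6A1, COL7A1 and COL6A3. Within the 17, the median difference was -0.19 for MCF10DCIS against MCF10AT1, 0.14 for MCF10CA1a against MCF10DCIS and -0.22 for MCF10CA1a against MCF10AT1, and that of all genes was -0.30, 0.30 and 0.

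**Figure D3:**
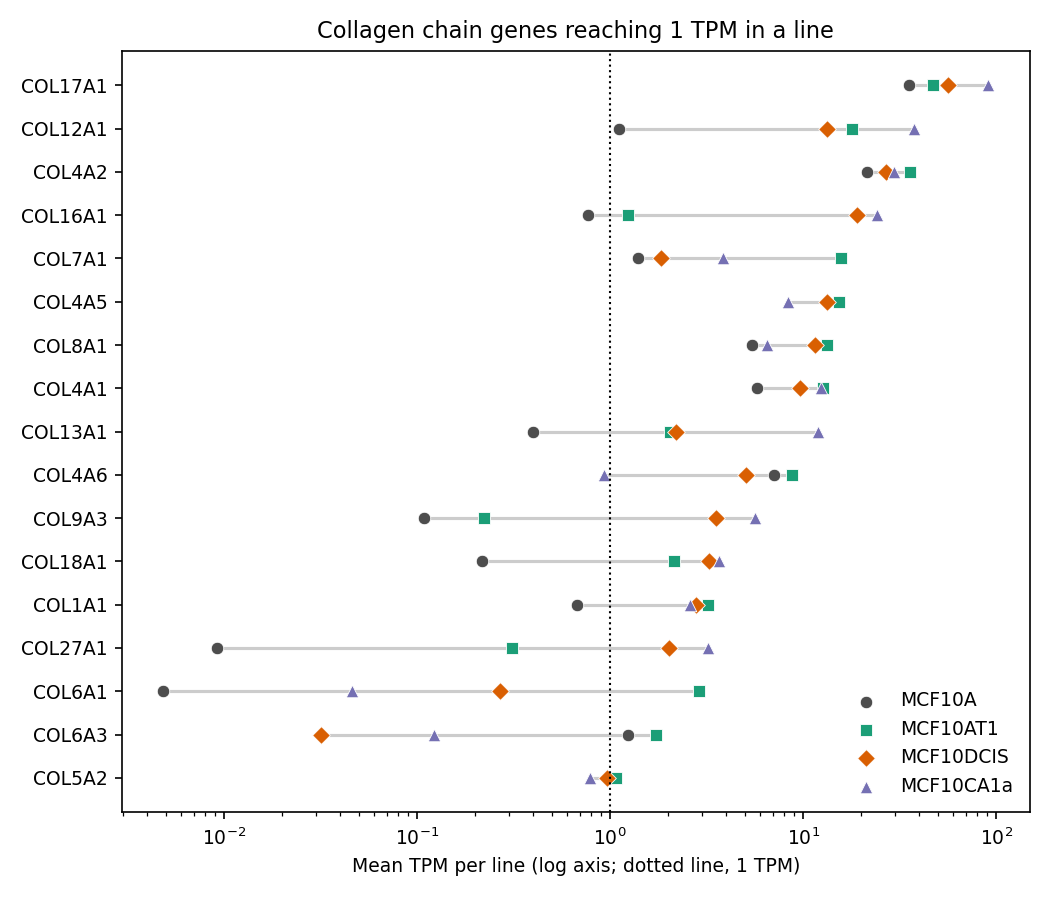
Mean TPM of each line (x axis, log scale; dotted line at 1 TPM) for the 17 collagen genes that reached 1 TPM in a line, ordered by their highest value. COL17A1 spans 35.2 to 91.2 TPM, and the 4 values of COL5A2 lie between 0.783 and 1.07 TPM. MCF10A is the lowest point for 13 of the 17 genes. Of the 17, 7 were under 1 TPM in MCF10A and are shown only because a derived line passed that level.

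COL17A1 encodes a transmembrane collagen of the hemidesmosome, the junction that fastens basal epithelial cells to the basement membrane. It was the most abundant collagen transcript, at 35.2 TPM in MCF10A and 46.8, 56.4 and 91.2 in MCF10AT1, MCF10DCIS and MCF10CA1a. The difference from MCF10A passed the rule of size in MCF10CA1a (1.35), where TPM was 2.59 times as high, and in MCF10DCIS it was 0.66, or 1.04 with rescaled TPM. Among its partners, the hemidesmosome integrin genes ITGA6 and ITGB4 were higher in MCF10DCIS and MCF10CA1a than in MCF10A. ITGA6 was 62.7, 93.1, 147 and 196 TPM in the order MCF10A, MCF10AT1, MCF10DCIS and MCF10CA1a, and ITGB4 was 72.9, 136, 563 and 330 TPM. ITGB4 was thus highest in MCF10DCIS and COL17A1 in MCF10CA1a. Of the 8 hemidesmosome and anchoring complex genes, 0 were higher in MCF10AT1 and 2 each in MCF10DCIS and MCF10CA1a, with 0 lower in any of the 3. Of all genes 3.39%, 3.56% and 5.97% were higher and 5.87%, 14.8% and 7.14% lower. The medians of the 8 were -0.25, 0.010 and 0.12, beside -0.066, -0.38 and -0.074 for all genes. COL17A1 lies on chromosome 10 from 104031286 to 104085957 (GRCh38, minus strand).

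The other transmembrane collagen above 1 TPM, COL13A1, is found at adhesions between cells and matrix. Its TPM was 0.3999 in MCF10A and 2.05, 2.19 and 11.9 in MCF10AT1, MCF10DCIS and MCF10CA1a. MCF10CA1a stood apart from the 3 other lines, by 2.02 over MCF10DCIS and 2.08 over MCF10AT1 on the log2 scale, and the latter lines were alike at a difference of 0.061. COL23A1 and COL25A1 stayed at or under 0.00330 TPM.

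COL7A1 encodes the chain of the anchoring fibrils, which run from the basement membrane into the tissue beneath. It was 1.39 TPM in MCF10A and 15.8, 1.84 and 3.85 in MCF10AT1, MCF10DCIS and MCF10CA1a. Its level in MCF10AT1 was 11.3 times that of MCF10A, and the difference of 2.81 passed the rule of size. MCF10DCIS was lower than MCF10AT1 by -2.56 and MCF10CA1a by -1.79. The difference of MCF10CA1a from MCF10A, 1.02, was just past the rule. COL7A1, whose upstream bases are printed above, lies on chromosome 3 from 48564073 to 48595267.

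Type IV collagen of most basement membranes combines the chains of COL4A1 and COL4A2. COL4A2 was 21.4 TPM in MCF10A and 35.7, 26.8 and 29.7 in MCF10AT1, MCF10DCIS and MCF10CA1a, and COL4A1 was 5.79, 12.7, 9.63 and 12.4 TPM. In both genes MCF10A was lowest and MCF10AT1 highest with TPM as deposited. The differences of COL4A2 from MCF10A, 0.72, 0.31 and 0.46, were under the rule of size. Those of COL4A1 were 1.02, 0.65 and 0.98, and with rescaled TPM they were 1.22, 1.06 and 1.19, past the rule in each derived line. COL4A2 exceeded COL4A1 3.69-fold in MCF10A and 2.80-, 2.78- and 2.40-fold in MCF10AT1, MCF10DCIS and MCF10CA1a. The genes lie head to head on chromosome 13, with 126 bases between their RefSeq starts at 110307157 (COL4A1) and 110307284 (COL4A2).

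COL4A5 and COL4A6 encode the chains of a second kind of type IV network, found in some epithelial basement membranes. COL4A5 was 15.4 TPM in MCF10A and 15.3, 13.3 and 8.40 in MCF10AT1, MCF10DCIS and MCF10CA1a, and none of its 6 pairwise differences reached the rule of size. COL4A6 was 7.09, 8.81, 5.06 and 0.929 TPM. MCF10CA1a stood below the other lines for COL4A6, by -2.07 from MCF10A, -2.35 from MCF10AT1 and -1.65 from MCF10DCIS. The COL4A5 level was 2.17, 1.74 and 2.62 times that of COL4A6 in MCF10A, MCF10AT1 and MCF10DCIS, and 9.04 times in MCF10CA1a. The pair lies head to head on chromosome X. RefSeq places the COL4A5 start at 108439838 and COL4A6 starts at 108439458 and 108438422, so 379 bases lie between the outer COL4A6 start and that of COL4A5. The first 121 of the COL4A5 bases printed above are also within 250 bases upstream of that outer COL4A6 start. A mean TPM per gene does not tell transcripts from the 2 COL4A6 starts apart. In rescaled TPM, the median difference of MCF10CA1a from MCF10A over 367 genes of chromosome X was 0.070, beside -2.44 for COL4A6 and -0.71 for COL4A5. A median over a chromosome does not show a change at 1 locus, which was not tested. The remaining type IV pair, COL4A3 and COL4A4, stayed at or under 0.0890 TPM.

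**Figure D4:**
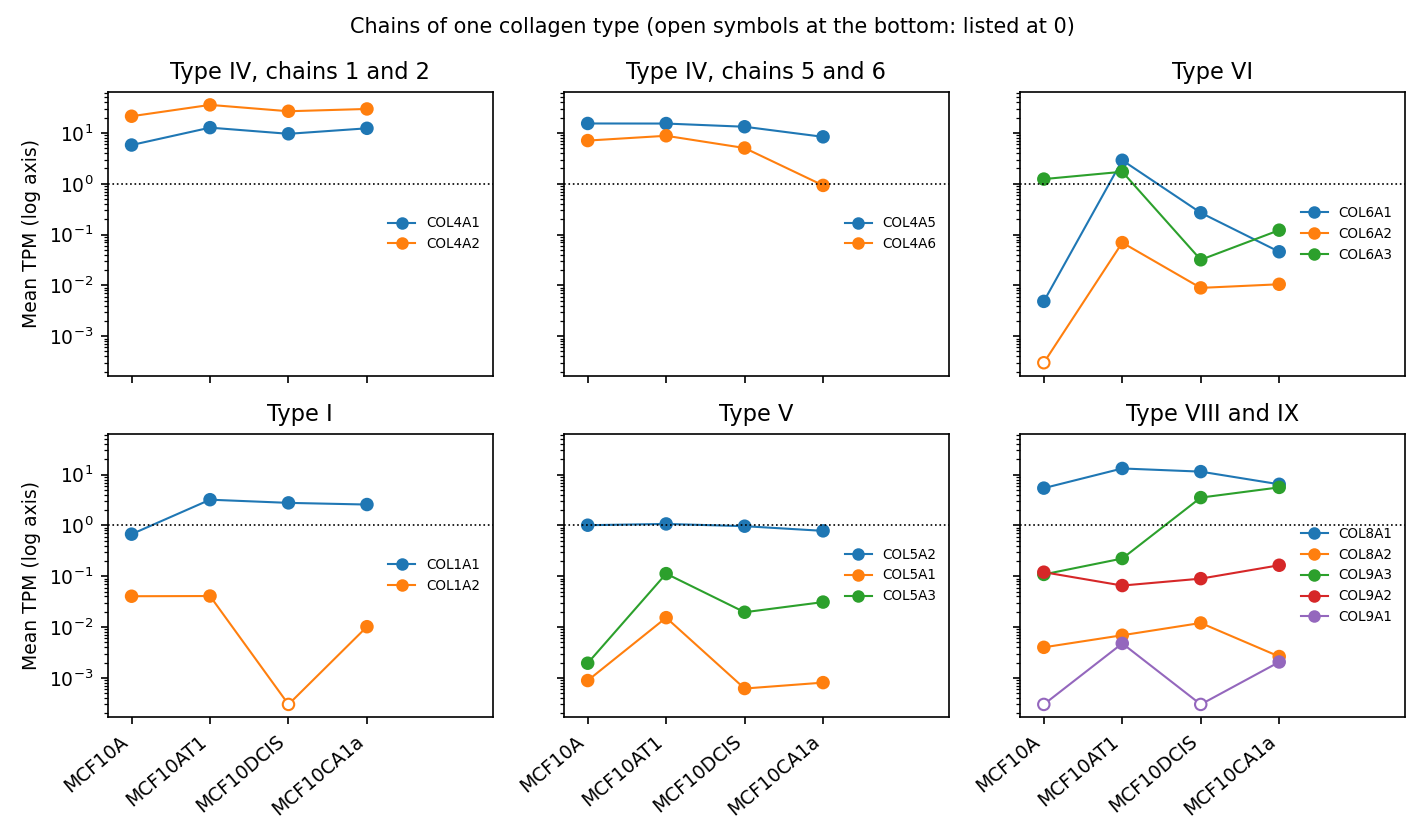
Mean TPM (y axis, log scale; dotted line at 1 TPM) of chains of one collagen type across the 4 lines (x axis), with open symbols for values listed at 0; the connecting lines only guide the eye. COL4A2 lies above COL4A1 in each line, by 3.69-fold in MCF10A and 2.40-fold in MCF10CA1a, COL4A6 drops away from COL4A5 in MCF10CA1a to 0.929 TPM, and COL1A1, COL5A2, COL8A1 and COL9A3 have partner chains that stay at or under 0.165 TPM.

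Of the 10 FACIT genes, COL12A1, COL16A1 and COL9A3 reached 1 TPM. COL12A1, whose product binds the surface of collagen I fibres, was 1.11 TPM in MCF10A and 17.9, 13.3 and 37.6 in MCF10AT1, MCF10DCIS and MCF10CA1a. The 3 derived lines stood above MCF10A by 3.16, 2.76 and 4.19 on the log2 scale, and TPM in MCF10CA1a was 33.9 times that of MCF10A. MCF10CA1a was also higher than MCF10AT1 by 1.03, or 0.99 after quantile normalization, and higher than MCF10DCIS by 1.43. COL12A1 lies on chromosome 6 from 75084326 to 75206051.

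COL16A1, a FACIT found with fibrils and at basement membrane zones, split the lines in another way. It was 0.767 TPM in MCF10A and 1.24 in MCF10AT1, whereas it reached 19.0 in MCF10DCIS and 24.1 in MCF10CA1a. MCF10AT1 differed from MCF10A by 0.34, while MCF10DCIS and MCF10CA1a stood above MCF10A by 3.50 and 3.83 and differed from each other by 0.33. COL9A3, a chain of cartilage collagen IX, had the same order of lines at 0.109, 0.223, 3.54 and 5.62 TPM. Its differences from MCF10A were 0.14, 2.03 and 2.58. COL27A1, a fibrillar collagen gene with high expression in cartilage, had 0.00923 TPM in MCF10A and 0.310, 2.02 and 3.21 in MCF10AT1, MCF10DCIS and MCF10CA1a, with differences of 0.38, 1.58 and 2.06. These genes lie on chromosomes 1 (COL16A1), 20 (COL9A3) and 9 (COL27A1). In rescaled TPM, genes of chromosome 9 had medians of 0.57 in MCF10AT1 and 0.56 in MCF10CA1a, beside 0.95 and 3.47 for COL27A1. For chromosome 20 the median was -0.50 in MCF10DCIS, where COL9A3 differed by 3.45. Across the chromosomes of all 17 genes, medians ranged from -0.50 to 0.57, and their part in the differences was not tested.

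COL18A1 encodes a basement membrane proteoglycan collagen from which endostatin is released. It was 0.216 TPM in MCF10A and 2.15, 3.26 and 3.68 in MCF10AT1, MCF10DCIS and MCF10CA1a, above MCF10A by 1.37, 1.81 and 1.94. The derived lines differed among themselves by at most 0.57. COL15A1, the other member of its class, stayed at or under 0.0105 TPM. COL8A1, a short-chain network collagen, was 5.43 TPM in MCF10A and 13.2, 11.5 and 6.46 in MCF10AT1, MCF10DCIS and MCF10CA1a. The difference from MCF10A was 1.15 in MCF10AT1, 0.96 in MCF10DCIS, or 1.40 with rescaled TPM, and 0.21 in MCF10CA1a. MCF10A and MCF10CA1a were thus the low lines for COL8A1.

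COL1A1, the main fibrillar chain of connective tissue, was 0.674 TPM in MCF10A and 3.22, 2.78 and 2.58 in MCF10AT1, MCF10DCIS and MCF10CA1a. It was above MCF10A in each derived line by 1.33, 1.18 and 1.10, and the derived lines were within 0.24 of each other. COL1A2, whose product joins that of COL1A1 in the usual collagen I trimer, was 0.0404, 0.0408, 0 and 0.0102 TPM. COL5A2, a chain of the collagen V that nucleates fibrils, varied least of the 17, at 1.01, 1.07, 0.968 and 0.783 TPM. Its partners COL5A1 and COL5A3 reached at most 0.0153 and 0.113 TPM. COL3A1, which lies tail to tail with COL5A2 on chromosome 2 at a distance of 19149 bases, reached at most 0.0491 TPM.

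Type VI collagen forms beaded filaments around cells from the chains of COL6A1, COL6A2 and COL6A3. COL6A1 was 0.00484 TPM in MCF10A and 2.90, 0.269 and 0.0459 in MCF10AT1, MCF10DCIS and MCF10CA1a, so MCF10AT1 was the only line above 1 TPM. COL6A3 was 1.24, 1.73, 0.0319 and 0.122 TPM, with MCF10A and MCF10AT1 on the high side. Its differences from MCF10A were 0.28 in MCF10AT1, -1.12 in MCF10DCIS and -0.995 in MCF10CA1a. This last value fell just short of the rule and was -1.73 with rescaled TPM. COL6A2, which follows COL6A1 on chromosome 21 at a distance of 93046 bases, was 0, 0.0694, 0.00893 and 0.0105 TPM. COL6A1 and COL6A3 were both above 1 TPM in MCF10AT1 alone, and there COL6A2 was under 0.1 TPM.

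Partner chains were also uneven for types VIII and IX. COL8A2 stayed at or under 0.0120 TPM in all lines beside COL8A1 at 5.43 to 13.2 TPM. COL9A1 and COL9A2, which form collagen IX with COL9A3, reached at most 0.00476 and 0.165 TPM, while COL9A3 was 3.54 TPM in MCF10DCIS and 5.62 TPM in MCF10CA1a. COL9A2 ranged from 0.0656 TPM in MCF10AT1 to 0.165 TPM in MCF10CA1a, levels too low to read a difference from.

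Fibroblast markers were set beside these values, because stromal cells make much of the interstitial collagen. Of 10 such markers, 1 reached 1 TPM in MCF10A and 4, 0 and 1 in MCF10AT1, MCF10DCIS and MCF10CA1a, with sums of 17.1, 156, 1.11 and 2.13 TPM. Those in MCF10AT1 were DCN at 134 TPM, FBN1 at 10.8 TPM, FAP at 7.85 TPM and POSTN at 3.22 TPM, while PDGFRA, LUM and THY1 were at or under 0.0579 TPM there. The marker that reached 1 TPM in MCF10A was FAP, which was higher there than in MCF10AT1, at 15.8 TPM. Of the 17 collagen genes compared, 9 were highest in MCF10AT1, or 6 with rescaled TPM, COL6A1 and COL7A1 among them. That line also had the highest fibroblast marker sum, most of it from DCN. The part of such a program in these collagen values was not tested. In MCF10DCIS and MCF10CA1a, where COL16A1 and COL12A1 were above 10 TPM, the 10 markers summed to at most 2.13 TPM. COL12A1 was also above 10 TPM in MCF10AT1, at 17.9 TPM, beside the marker sum of 156 TPM, and the summed epithelial markers were lowest in that line. Endothelial markers summed to between 0.949 and 4.76 TPM with 0 or 1 of 6 above 1 TPM. Leukocyte markers summed to between 2.89 and 6.67 TPM, with CD68 alone above 1 TPM.

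The 27 members that stayed under 1 TPM comprised 2 listed at 0 in each line, COL10A1 and COL26A1, 21 that stayed under 0.1 TPM and 4 that reached between 0.1 and 1 TPM. The 4 were COL22A1, COL28A1, COL9A2 and COL5A3. COL22A1, a FACIT of tissue junctions, was 0.0703, 0.0147, 0.366 and 0.00776 TPM in the order MCF10A, MCF10AT1, MCF10DCIS and MCF10CA1a, so its value in MCF10DCIS stood nearest below the level of 1 TPM. COL5A2 at 1.07 TPM stood nearest above it. COL28A1 was 0.151, 0.246, 0.0233 and 0.0244 TPM. The cartilage fibril gene COL2A1 reached 0.0905 TPM and COL11A2 0.0709 TPM. COL11A1, COL14A1, COL15A1, COL19A1, COL20A1, COL21A1, COL24A1, COL6A5 and COL6A6 ranged from 0 to 0.0557 TPM. The 27 together summed to between 0.409 and 0.856 TPM per line.

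The 44 genes are spread over 17 chromosomes in GENCODE release 29, and 7 pairs of them lie within 100000 bases of each other or overlap. Of these pairs 3 are head to head, all of type IV. The head-to-head genes COL4A1 and COL4A2 both exceeded 1 TPM in every line and COL4A3 and COL4A4 in none. The 4 other pairs are COL3A1 with COL5A2, COL6A1 with COL6A2, COL6A5 with COL6A6, and COL19A1 with COL9A1, in none of which both genes reached 1 TPM.

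Enzymes and chaperones that fold and export procollagen differed in both directions. Of 23 such genes 21 were compared, and 3 were higher and 0 lower in MCF10AT1, 3 and 3 in MCF10DCIS, and 2 and 3 in MCF10CA1a. The shares of all genes were 3.39% higher and 5.87% lower, 3.56% and 14.8%, and 5.97% and 7.14%, so the lower count in MCF10DCIS was near that of all genes. FKBP10, a collagen chaperone of the endoplasmic reticulum, was 0.122, 8.37, 30.02 and 67.7 TPM in MCF10A, MCF10AT1, MCF10DCIS and MCF10CA1a. P3H4, a subunit of the collagen-modifying complex there, was 3.02, 7.62, 22.4 and 31.1 TPM. P3H1, a prolyl hydroxylase, was highest in MCF10AT1 at 18.0 TPM and 6.03 in MCF10A. The lysyl hydroxylase gene PLOD1 was 81.2 TPM in MCF10A and 76.7, 25.4 and 34.1 TPM in MCF10AT1, MCF10DCIS and MCF10CA1a. The list's medians, 0.19, 0.073 and -0.020, stood beside -0.066, -0.38 and -0.074 for all genes.

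Of 13 processing and crosslinking genes, 7 were compared, with 0 higher in any derived line and 1, 3 and 3 lower in MCF10AT1, MCF10DCIS and MCF10CA1a, where 5.87%, 14.8% and 7.14% of all genes were lower. The list's medians were -0.40, -0.72 and -0.74, beside -0.066, -0.38 and -0.074 for all genes. Its members did not share a direction: PCOLCE2, which encodes an enhancer of procollagen C-proteinase, differed from MCF10A by 0.62, 0.56 and 0.53, and the lysyl oxidase gene LOX by 0.63, -0.20 and -0.65. Both were chosen for mention after their values were seen. LOXL2, a lysyl oxidase that crosslinks collagen, was 87.8, 32.6, 8.19 and 15.9 TPM in MCF10A, MCF10AT1, MCF10DCIS and MCF10CA1a. BMP1, the procollagen C-proteinase, was 22.4, 16.7, 5.72 and 10.1 TPM. Both genes were thus lowest in MCF10DCIS and highest in MCF10A.

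Of 11 collagen receptor genes 6 were compared, and 1, 2 and 2 were higher in MCF10AT1, MCF10DCIS and MCF10CA1a, with 0, 0 and 1 lower. Among all genes the shares were 3.39%, 3.56% and 5.97% higher and 5.87%, 14.8% and 7.14% lower, and 6 genes are too few to set against them. ITGA2, the alpha subunit of a collagen-binding integrin, was 11.3, 10.9, 11.8 and 44.8 TPM, high in MCF10CA1a alone. ITGA10, another collagen-binding subunit, was 2.87, 3.22, 14 and 0.0918 TPM. Its high line was MCF10DCIS and its low line MCF10CA1a. Of 7 collagen-degrading enzymes 4 were compared, with 1, 0 and 1 higher and 0, 1 and 1 lower, and 4 genes are likewise too few to set against those shares. MMP2, a gelatinase that also cleaves type IV collagen, was 5.76, 17.6, 1.83 and 0.875 TPM, highest in MCF10AT1 as COL7A1 was.

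Of 10 further basement membrane genes 8 were compared, and 0, 1 and 1 were higher with 0, 0 and 1 lower. With 3.39%, 3.56% and 5.97% of all genes higher and 5.87%, 14.8% and 7.14% lower, a count of 1 in 8 is not set apart from the background. The collagen-binding protein gene SPARC was 0.203, 1.22, 92.9 and 31.7 TPM, and the laminin chain gene LAMB2 was 48.3, 45.6, 27.1 and 17.8 TPM. MCF10DCIS and MCF10CA1a were high for SPARC, as they were for COL16A1.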

How the data were processed

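RNA from 12 libraries of 4 MCF10 lines, 3 per line, was prepared with a stranded kit per the labels' protocols. Per the file headers, the authors deposited mean TPM per line, 1 column each, summing to 1000000. STAR and edgeR are among the tools and hg38 the build, per the submitters' processing notes; their versions, the program that made the TPM, its annotation and its strand setting were not stated there. Depth is unknown, as TPM keeps no read count. Every deposited value above 0 (100%) could be written, within 0.01 of a step, as the average of 3 six-decimal values.

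From these, differences of log2(TPM + 1) were computed for 6 pairs of lines (Python 3.11.15, pandas 2.3.3), with a pseudocount of 1, a filter of 1 TPM in at least 1 line, and a rule of size of 1. No test was run. The calculation was tested on simulated tables. Every member reaching 1 TPM is named. Of each of 6 pathway lists, up to 4 genes past the rule with at least 10 TPM in the higher line are named. PCOLCE2 and LOX are named outside that rule, to show that their list did not share a direction. The members and lists were chosen with earlier results of these data known. Positions are from GENCODE release 29 (GRCh38), which held all 44 members, and sequences from RefSeq (GRCh38.p14). In the motif counts, the first window listed for a gene was used. The alternatives tried were another pseudocount, other filters, 3 other scalings, another rule of size and other levels for counting a gene as expressed.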

Additional observations from a re-analysis of the deposited data

How the results depend on the processing

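In each alternative the members compared were chosen by their deposited TPM, and only the other filters changed which ones these were. The number of members reaching the level was 17 with 1 TPM, 17 with 0.5 TPM, 15 with 2 TPM, 18 with rescaled TPM and 17 with the 2 other scalings. No member's difference past the rule of size changed sign under any alternative run. Counts of members that moved over 1.5 times were small. With a pseudocount of 0.1, members lower in MCF10CA1a were 2 against MCF10A and 2 against MCF10DCIS, each 1 as reported. Of all genes, 10.4% and 2.49% were then lower. Members lower in MCF10CA1a were 2 and 2 with rescaled TPM as well (7.79% and 2.89% of all genes). Against MCF10DCIS they were 2 with median-of-ratios scaling (2.65%) and with quantile normalization (2.61%). With a filter of 5 TPM, which kept 11 members, those higher than MCF10A were 5 in MCF10AT1 (2.96% of all genes) and 4 in MCF10DCIS (3.34%). Those lower were 0 in MCF10DCIS against MCF10A (16.7%), 1 in MCF10DCIS against MCF10AT1 (8.01%) and 2 in MCF10CA1a against MCF10AT1 (3.80%). With a rule of 1.5-fold, MCF10CA1a had 3 lower against MCF10A, and 4 higher and 3 lower against MCF10DCIS, where 17.6%, 21.7% and 3.42% of all genes passed, so the first pair of counts was near the background. Without a filter, 42 members were compared, and the counts could not move. With a pseudocount of 1, a gene under 1 TPM in every line cannot reach the rule of size. The share of all genes higher in MCF10AT1 than in MCF10A was then 1.34%. No paired analysis was possible because the table holds 1 mean per line and its columns carry no replicate number, and leaving out each replicate was not run for that reason. A mean does not show whether 1 library set it.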

Other observations

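Besides the 44 members, 9 rows of the table had names that begin with a member's symbol, among them the pseudogenes COL6A4P1, COL6A4P2 and COL11A2P1 and antisense transcripts of COL18A1, COL4A2 and COL5A1. None exceeded 0.00989 TPM in any line, so the rows that overlap COL18A1 and COL4A2 on the other strand held almost no signal in the table.

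Ranked among the 13108 genes that reached 1 TPM, COL17A1 stood at percentile 84.9 in MCF10A and 94.9 in MCF10CA1a. COL12A1 went from percentile 9.64 in MCF10A to 86.7 in MCF10CA1a, and COL16A1 from 6.10 to 79.1. COL4A6 went from 45.1 to 7.77, while COL4A5 was at 67.4 and 52.3. The order of other genes within a line does not depend on how much of the TPM structural RNAs hold. The set of ranked genes does, through the level of 1 TPM, and it includes those RNAs. COL16A1 in MCF10A and COL4A6 in MCF10CA1a were under 1 TPM and were ranked because other lines passed that level.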
